A study of Rattus norvegicus with 16 samples.

Results

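The integrated stress response was followed through 10 genes, Atf4, Ddit3, Trib3, Sesn2, Asns, Phgdh, Psat1, Chac1, Gdf15 and Fgf21. They were chosen by symbol as the response's central transcription factor and 9 genes commonly used as its readouts, and all 10 were found among the 17147 genes of the count table. Messenger RNA was measured in supraspinatus, a shoulder muscle of the rotator cuff, of Sprague Dawley rats. The 16 libraries fall into 4 groups of 4: unoperated controls (0 days), and muscle taken 10, 30 or 60 days after an operation on both shoulders that combined a full-thickness tear of the supraspinatus with neurectomy of the suprascapular nerve, which supplies it. All 3 operated groups carry both injuries, so tear and denervation cannot be told apart, and no sham-operated group is among the samples. The labels give neither the rats' age nor whether libraries came from separate animals, so p-values measure only the spread between these libraries, which may in part be technical.

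In the integrated stress response, 4 kinases that sense different stresses (PERK for unfolded protein in the endoplasmic reticulum, GCN2 for amino acid shortage, PKR for double-stranded RNA and HRI for haem shortage or mitochondrial stress) phosphorylate the translation factor eIF2. General protein synthesis falls, while ATF4 is translated more and then activates genes for amino acid synthesis and uptake, for the feedback regulators CHOP (gene Ddit3) and TRIB3, and for secreted factors. Much of the control of ATF4 lies in translation, so the level of Atf4 messenger RNA does not measure the amount of ATF4 protein. In skeletal muscle the response is known from mitochondrial disease and fasting, in which FGF21 and GDF15 can be released from the muscle.

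ATF4 binds DNA together with C/EBP proteins at a composite element written here as TGATGNAA, searched on both strands in the 250 bases before each annotated start. All 10 members had a promoter in RefSeq (assembly GRCr8), in 11 entries because Gdf15 has 2 starts. The letters occurred in the promoters of Fgf21, Chac1 and Trib3, each time once and on the strand opposite to the gene, and in 3.4% of all 33469 rat promoter windows of this length. These 3 are printed because they are the members that carry the element. Each line gives the bases before the start, 5′ to 3′ on the gene's strand, with the match in capitals.
Fgf21: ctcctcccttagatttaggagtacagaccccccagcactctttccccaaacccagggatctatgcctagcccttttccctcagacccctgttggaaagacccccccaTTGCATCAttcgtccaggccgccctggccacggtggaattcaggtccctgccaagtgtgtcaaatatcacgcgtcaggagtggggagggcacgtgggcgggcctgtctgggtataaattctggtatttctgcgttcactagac
Chac1: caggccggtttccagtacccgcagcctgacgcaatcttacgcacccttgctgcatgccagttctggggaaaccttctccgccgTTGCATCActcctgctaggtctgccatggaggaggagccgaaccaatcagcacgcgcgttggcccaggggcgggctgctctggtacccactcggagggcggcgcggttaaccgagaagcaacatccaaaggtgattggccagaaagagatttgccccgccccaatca
Trib3: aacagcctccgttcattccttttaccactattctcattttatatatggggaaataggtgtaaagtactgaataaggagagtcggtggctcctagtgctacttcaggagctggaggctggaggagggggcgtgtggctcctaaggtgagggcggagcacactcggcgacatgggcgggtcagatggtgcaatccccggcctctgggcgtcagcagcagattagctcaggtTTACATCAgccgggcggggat
The Fgf21 window lies at chr1:105221377-105221626 on the minus strand (GRCr8), with TTGCATCA at bases 143 to 136 before the start. That of Chac1 lies at chr3:126795881-126796130 on the plus strand, with the same letters at bases 167 to 160. For Trib3 the window is chr3:161275534-161275783 on the minus strand, and it holds TTACATCA at bases 21 to 14. A match describes letters only; no binding was measured, and absence from a window of this length says nothing about the factor.

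Levels are given as CPM, the fragments counted for a gene in each 1 M (M, mega) of its library after scaling by TMM, a factor that centres each library on the bulk of its genes. CPM are not divided by gene length, so they compare libraries and not genes. Changes are log2 fold changes from an edgeR quasi-likelihood model of all 16 libraries, with their standard errors (SE), and a gene is said to have risen or fallen at a Benjamini-Hochberg adjusted p under 0.05 over all 11658 genes tested. All 10 members were tested, but Gdf15, Fgf21 and Trib3 passed the filter on low counts (0.406 CPM, before TMM scaling, in at least 4 libraries) largely through the times at which they were high. No library of the 0-day group reached that level for Gdf15 or Fgf21. Fgf21 reached it in 4, 3 and 0 libraries at 10, 30 and 60 days. Trib3 reached it in 2, 4, 0 and 1 libraries in order of time. Comparisons of Fgf21 and Trib3 that leave out the 10-day group were therefore tested only because of that group.

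The libraries held 17.2 to 39.9 M fragments, and those of 60 days were the smallest at 17.2 to 22.4 M. Muscle fibre markers were high in every library: the summed level of Ckm, Acta1, Myh1, Myh2, Myh4 and Myh7 (Ttn and Neb were not analysed here) was 167600 to 187500 CPM at 0 days, 29816 to 35659 in the 10-day group, 57658 to 91786 in the 30-day group and 87617 to 106350 at 60 days. Summed macrophage markers (7 genes) ran from 20.3 to 38.3 CPM at 0 days, and from 69.6 to 96.5, 102 to 125 and 78.6 to 154 at the later times. Fibroblast markers (5 genes) went from 429 to 929 CPM at 0 days to 820 to 2406 in the 10-day group, 1331 to 2145 in the 30-day group and 1221 to 2600 at 60 days. Adipocyte markers (4 genes) stayed within 7.42 to 41.5 CPM up to 30 days and reached 49.6 to 119 at 60 days. Schwann cell markers (4 genes) summed to 68.6 to 106, 32.1 to 56.1, 72.9 to 108 and 127 to 262 CPM, and endothelial markers (4 genes) to 197 to 240, 105 to 166, 154 to 178 and 171 to 264 CPM in order of time. No marker was at 0 in all libraries. In such bulk tissue fewer cells of a type and less RNA per cell cannot be told apart, and the part of these shifts in the results below was not tested.

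Atf4 messenger RNA fell at every time after injury. It stood at 553, 543, 603 and 613 CPM in the 4 unoperated libraries, at 161, 161, 161 and 189 in the 10-day group, at 185, 219, 239 and 211 in the 30-day group, and at 263, 343, 351 and 239 at 60 days. No operated library came near the unoperated ones, and among the operated groups the 60-day mean was the highest. The fall was 3.44-fold at 10 days, a log2 fold change of -1.78 ± 0.12 (SE; edgeR adjusted p 3.23e-09). At 30 days it was -1.44 ± 0.12 (edgeR adjusted p 3.68e-08) and at 60 days -0.95 ± 0.12 (edgeR adjusted p 4.44e-06). Between the operated times Atf4 rose from 10 to 60 days by 0.83 ± 0.12 on the log2 scale (edgeR adjusted p 1.36e-05), with no overlap, and from 30 to 60 days by 0.49 ± 0.12 (edgeR adjusted p 0.0073), with overlap. The step from 10 to 30 days, 0.35 ± 0.12 (edgeR adjusted p 0.0221), was lost without 10-day replicate 1, 2 or 3 or 30-day replicate 3, whose adjusted p ran from 0.0518 to 0.0741, and with library totals. The summed muscle fibre markers had the same order of groups as Atf4, lowest at 10 days and partly back at 60 days.

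Ddit3, which encodes CHOP, a transcription factor that takes part in cell death under lasting stress, took another course. Its levels were 27.5, 31.0, 36.7 and 34.8 CPM at 0 days, 19.3, 14.2, 15.4 and 19.9 in the 10-day group, 31.4, 35.3, 39.0 and 36.6 in the 30-day group, and 44.4, 47.2, 45.2 and 49.3 at 60 days. The 10-day libraries lay below all others, the 30-day libraries overlapped the unoperated ones, and the 60-day libraries lay above all others. Ddit3 fell by 0.92 ± 0.11 on the log2 scale at 10 days (edgeR adjusted p 2.55e-06), differed by 0.13 ± 0.11 at 30 days (edgeR adjusted p 0.321), and rose by 0.52 ± 0.11 at 60 days (edgeR adjusted p 0.000888). From 10 to 60 days it rose by 1.44 ± 0.11, and from 10 to 30 days by 1.05 ± 0.11 (edgeR adjusted p 4.86e-08 and 2.47e-06). The step from 30 to 60 days was 0.39 ± 0.11 (edgeR adjusted p 0.0192), and it was lost without 30-day replicate 1 (0.33, adjusted p 0.068) and with library totals (0.31, adjusted p 0.0507). At 60 days Ddit3 was above its unoperated level while Atf4 was below its own.

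**Figure D1:**
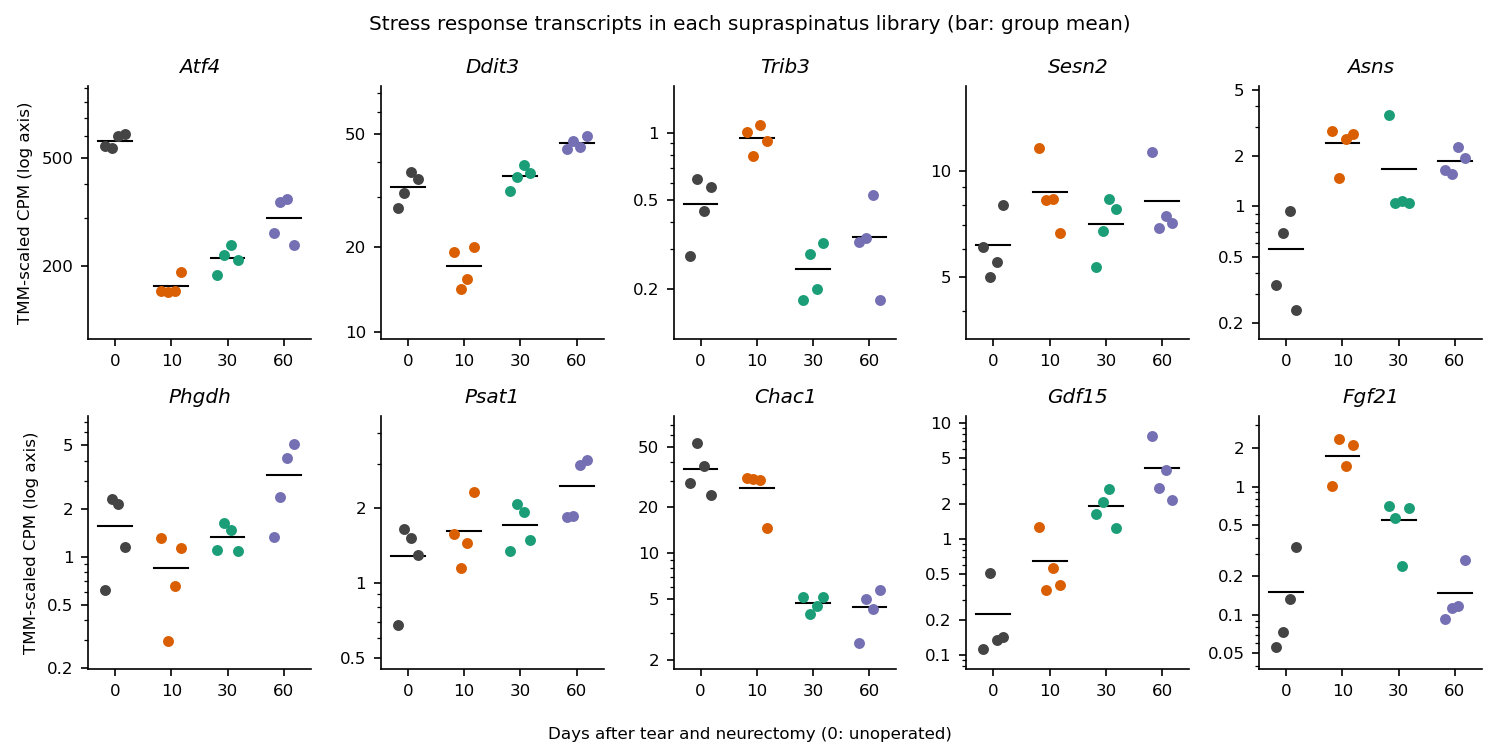
Level of each of the 10 genes in every library, in TMM-scaled CPM on a log axis, by days after tear and neurectomy (0 is unoperated). Each point is 1 library and each bar the mean of 4. Atf4 was lower in all operated libraries, Chac1 dropped to 2.58 to 5.69 CPM from 30 days on, Fgf21 was highest at 10 days and Gdf15 at 60 days.

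Trib3 and Sesn2 encode regulators that restrain the response or growth: TRIB3 is a pseudokinase that binds ATF4 and CHOP, and SESN2 is a leucine-binding inhibitor of mTORC1. Trib3 was at low levels, 0.281, 0.624, 0.446 and 0.575 CPM at 0 days, 1.02, 0.789, 1.09 and 0.922 in the 10-day group, 0.177, 0.285, 0.200 and 0.322 in the 30-day group, and 0.323, 0.337, 0.526 and 0.178 at 60 days. The 10-day libraries were all above the others. These levels rest on 24 to 35 fragments per library at 10 days and on 4 to 17 elsewhere. Trib3 rose by 0.95 ± 0.29 on the log2 scale at 10 days (edgeR adjusted p 0.00847) and then fell by 1.92 ± 0.30 from 10 to 30 days (edgeR adjusted p 8.11e-05). At 60 against 10 days its log2 change was -1.51 ± 0.31 (edgeR adjusted p 0.00054). Below the unoperated level it was called at 30 days, at -0.97 ± 0.34 (edgeR adjusted p 0.0187), but the groups overlapped and the call was lost without 0-day replicate 2 or 4 or 30-day replicate 1 and with library totals. At 60 days the difference from 0 days was -0.56 ± 0.35 (edgeR adjusted p 0.177).

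Sesn2 was the 1 member that missed the joint test of the 4 groups (edgeR adjusted p 0.115), while all 10 passed with library totals. Its levels ran from 4.99 to 8.0 CPM at 0 days, 6.67 to 11.6 in the 10-day group, 5.35 to 8.32 in the 30-day group and 6.90 to 11.3 at 60 days, and every pair of groups overlapped. Sesn2 was called higher at 10 days, by 0.51 ± 0.21 on the log2 scale (edgeR adjusted p 0.0414). This call was lost without any 1 of 0-day replicates 1, 2 and 3 or 10-day replicates 1, 2 and 3, with adjusted p from 0.054 to 0.17, in the fit with the replicate block (0.50, adjusted p 0.0524) and with RLE factors (0.47, adjusted p 0.0567). At 30 and 60 days its differences from 0 days were 0.20 ± 0.21 and 0.42 ± 0.21 (edgeR adjusted p 0.414 and 0.0944). The 60-day difference passed without 0-day replicate 4 (0.59), with upper-quartile factors (0.56) and with the title letter as a covariate (0.53). Both differences passed with library totals (0.68 and 0.82).

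Asns, the enzyme that makes asparagine and a standard readout of ATF4, rose at all 3 times. It was measured at 0.337, 0.697, 0.937 and 0.240 CPM at 0 days, at 2.84, 1.48, 2.54 and 2.70 in the 10-day group, at 3.51, 1.04, 1.08 and 1.05 in the 30-day group, and at 1.66, 1.57, 2.28 and 1.96 at 60 days. No operated library was as low as the highest unoperated one, while the operated groups overlapped each other. The unoperated levels rest on 6, 19, 21 and 5 fragments. The log2 fold changes were 2.07 ± 0.45 at 10 days, 1.54 ± 0.46 at 30 days and 1.71 ± 0.46 at 60 days (edgeR adjusted p 0.000713, 0.00731 and 0.00494). The library of 30-day replicate 1 stood far above the other 3, and without it the 30-day change was 0.89 and Asns fell from 10 to 30 days by 1.18 (edgeR adjusted p 0.00607), against a change of -0.52 ± 0.38 with it (edgeR adjusted p 0.276).

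Phgdh and Psat1 encode the first and the second enzyme of serine synthesis from a glycolytic intermediate. Phgdh ranged from 0.619 to 2.31 CPM at 0 days, 0.296 to 1.31 in the 10-day group, 1.09 to 1.61 in the 30-day group and 1.34 to 5.07 at 60 days. Its level at 60 days was above that at 10 days by 1.91 ± 0.46 on the log2 scale (edgeR adjusted p 0.00205), with no overlap. Against 0 days it did not pass at any time: -0.89 ± 0.48 at 10 days, -0.26 ± 0.46 at 30 days and 1.02 ± 0.45 at 60 days (edgeR adjusted p 0.116, 0.642 and 0.0611). Psat1 ranged from 0.675 to 1.65 CPM at 0 days, 1.15 to 2.31 in the 10-day group, 1.35 to 2.07 in the 30-day group and 1.84 to 3.11 at 60 days. Psat1 rose at 60 days by 0.90 ± 0.29 (edgeR adjusted p 0.0128), when all 4 libraries were above every unoperated one, and at 10 and 30 days its differences were 0.31 ± 0.29 and 0.39 ± 0.29 (edgeR adjusted p 0.355 and 0.24). Near the threshold, Phgdh at 60 against 0 days passed without 0-day replicate 2 (1.30), 10-day replicate 2 (1.02) or 60-day replicate 1 (1.28), and at 60 against 30 days it stood at 1.28 ± 0.45 (edgeR adjusted p 0.0501) and passed without 0-day replicate 1 or 2, 10-day replicate 1 or 2, or 60-day replicate 1. Both comparisons also passed with upper-quartile factors and with DESeq2, the first with library totals too, and the second with RLE factors and with the filter at a mean of 1 CPM. Its 10-day difference from 0 days passed without 0-day replicate 1 (-1.13). Psat1 at 60 against 10 days, 0.59 ± 0.27 (edgeR adjusted p 0.0709), passed without 0-day replicate 1, 10-day replicate 4 or 60-day replicate 1, and with upper-quartile factors or DESeq2. RefSeq lists pseudogenes of both genes, and how the authors treated fragments that match several places is not given in the sources used here, so both counts are uncertain in that respect.

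Within groups, libraries with more Phgdh also had more Psat1. After each group's mean was taken out of log2 CPM, the correlation of the 2 genes over the 16 libraries was 0.877 (Pearson's r), the highest of the 45 pairs of members. The next pairs were Ddit3 with Phgdh at 0.691 and Ddit3 with Psat1 at 0.681, the median pair was 0.0939, and the lowest was Gdf15 with Fgf21 at -0.637. These are descriptions over libraries that share depth and tissue make-up, and several of the genes have few fragments.

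**Figure D2:**
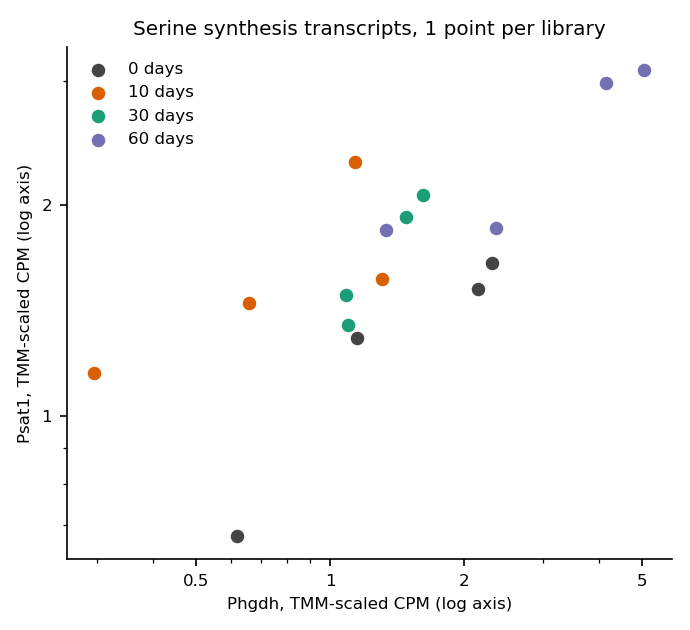
Psat1 against Phgdh in the 16 libraries, both in TMM-scaled CPM on log axes, with 1 point per library and the colour giving the group. Within a time the points run from low in both genes to high in both, and 60-day libraries reach 5.07 CPM of Phgdh and 3.11 CPM of Psat1.

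Chac1, which encodes an enzyme that degrades glutathione and is induced by ATF4 and CHOP in many cells, fell late. Its levels were 28.7, 53.2, 37.3 and 24.0 CPM at 0 days, 31.0, 30.7, 30.4 and 14.6 in the 10-day group, 5.17, 3.99, 4.52 and 5.15 in the 30-day group, and 2.58, 4.99, 4.33 and 5.69 at 60 days. The 8 libraries of 30 and 60 days lay below all 8 of 0 and 10 days. The fall was 7.65-fold at 30 days, a log2 change of -2.94 ± 0.29, and 8.16-fold at 60 days, a change of -3.03 ± 0.30 (edgeR adjusted p 5.08e-07 and 8.10e-07). Between 10 and 30 days Chac1 fell by 2.51 ± 0.29 on the log2 scale (edgeR adjusted p 6.66e-06), and from 30 to 60 days it differed by -0.094 ± 0.31 (edgeR adjusted p 0.86). At 10 days the difference from 0 days was -0.43 ± 0.26 (edgeR adjusted p 0.167), and it turned to 0.23 with library totals. Chac1 fell from 10 to 30 days while Ddit3 rose.

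Gdf15 and Fgf21 encode hormones that muscle can secrete under stress, acting through GFRAL in the brainstem and through FGF receptors with beta-klotho. Gdf15 was at 0.112, 0.514, 0.134 and 0.144 CPM at 0 days, 1.28, 0.361, 0.560 and 0.400 in the 10-day group, 1.63, 2.07, 2.72 and 1.25 in the 30-day group, and 7.65, 2.75, 3.92 and 2.18 at 60 days. All libraries of 30 and 60 days were above every unoperated one, and only the 0-day and 10-day groups overlapped among the comparisons with 0 days. Replicates 1, 3 and 4 at 0 days held 2, 3 and 3 fragments of Gdf15, and replicate 2 held 14. Gdf15 rose by 2.95 ± 0.58 on the log2 scale at 30 days and by 4.06 ± 0.56 at 60 days (edgeR adjusted p 0.000346 and 1.85e-05), and from 10 to 60 days by 2.65 ± 0.47 (edgeR adjusted p 0.000147). Without 0-day replicate 2, the high one, the rises came to 3.83 and 4.95. At 10 days the difference was 1.41 ± 0.63 (edgeR adjusted p 0.0625), and without that library 2.29 (adjusted p 0.0164); it also passed without 10-day replicate 2 or 4 or 60-day replicate 1. From 10 to 30 days Gdf15 rose by 1.54 ± 0.47 (edgeR adjusted p 0.0138), with overlap, and from 30 to 60 days it differed by 1.11 ± 0.43 (edgeR adjusted p 0.073), which passed without 10-day replicate 1 or 60-day replicate 4. Macrophage and fibroblast markers were also higher at these times, with the values given above, and their part in the rise was not tested.

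Fgf21 rose at 10 and 30 days and was again at a few fragments per library at 60 days. It stood at 0.0562, 0.0734, 0.134 and 0.335 CPM at 0 days, at 1.02, 2.37, 1.45 and 2.09 in the 10-day group, at 0.709, 0.570, 0.240 and 0.684 in the 30-day group, and at 0.0922, 0.112, 0.117 and 0.267 at 60 days. The 10-day libraries were above all others. They held 35 to 72 fragments, against 1, 2, 3 and 7 at 0 days and 2, 2, 2 and 6 at 60 days. The rise was 3.50 ± 0.47 on the log2 scale at 10 days (edgeR adjusted p 6.05e-06), and 1.87 ± 0.52 at 30 days (edgeR adjusted p 0.00479), where 30-day replicate 3 overlapped the unoperated libraries. Without 0-day replicate 4, the rises were 4.21 and 2.58. Fgf21 fell from 10 to 30 days by 1.63 ± 0.36 and stood at -3.48 ± 0.48 at 60 against 10 days (edgeR adjusted p 0.00152 and 1.00e-05). The fall from 30 to 60 days, -1.84 ± 0.53 (edgeR adjusted p 0.0196), was lost without 30-day replicate 1 or 60-day replicate 2 or 3. In the fit of those 2 groups alone, Fgf21 did not pass the filter on low counts and was not tested. At 60 against 0 days the fitted difference was 0.028 ± 0.67 (edgeR adjusted p 0.976). With so few fragments in both groups and so wide an SE, the lack of a call does not show equal levels.

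**Figure D3:**
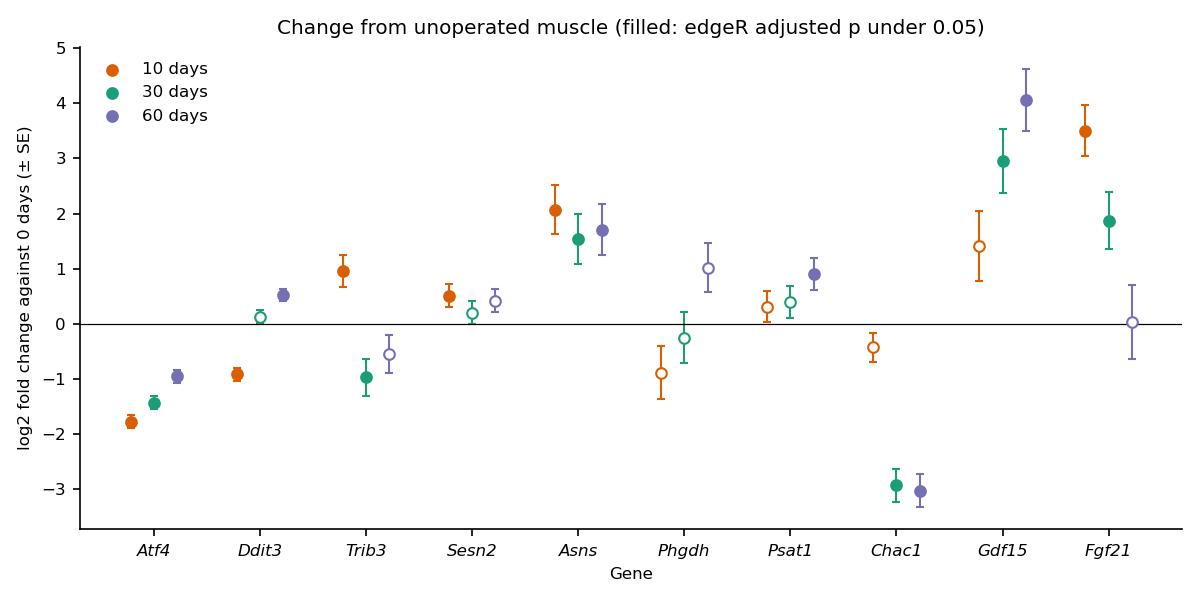
Log2 fold change of the 10 genes from unoperated muscle at 10, 30 and 60 days, with bars of 1 SE from the edgeR model, filled where the adjusted p is under 0.05. Atf4 was below 0 and Asns above 0 at all 3 times, Gdf15 climbed to 4.06 and Fgf21 came down from 3.50.

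The members did not move as a block. At 10 days, 4 of the 10 rose (Trib3, Asns, Sesn2 and Fgf21) and 2 fell (Atf4 and Ddit3), where 33.3% of all tested genes rose and 29.4% fell. At 30 days 3 rose (Asns, Gdf15 and Fgf21) and 3 fell (Atf4, Trib3 and Chac1), against 33.7% and 30.9% of all genes. At 60 days 4 rose (Ddit3, Asns, Psat1 and Gdf15) and 2 fell (Atf4 and Chac1), against 29.9% and 29.1%. These shares are near those of all genes in each direction. The members' median log2 fold changes were 0.41, 0.16 and 0.47 at 10, 30 and 60 days, beside 0.061, 0.046 and 0.040 over all tested genes. The 3 comparisons share their unoperated libraries. In the joint test of the 4 groups 9 of the 10 members passed, as did 84.7% of all genes. The member count was 10 with library totals and 8 with limma-voom or without a filter. With the filter at a mean of 1 CPM, which left low genes untested, it was 7. Leaving out 1 library gave 8 or 9.

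Between the operated times, Atf4, Ddit3 and Gdf15 rose from 10 to 30 days and Trib3, Chac1 and Fgf21 fell, where 23.0% of all genes rose and 24.3% fell. From 30 to 60 days Atf4 and Ddit3 rose and Fgf21 fell, where 10.3% rose and 12.4% fell. Without 10-day replicate 1 that count of 3 members was 5, and without 30-day replicate 1 it was 1. From 10 to 60 days Atf4, Ddit3, Phgdh and Gdf15 rose and Trib3, Chac1 and Fgf21 fell, where 29.1% rose and 31.9% fell. The members' medians were -0.11, 0.40 and 0.25 for these 3 comparisons, beside 0.033, -0.0066 and -0.0074 over all genes.

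The direction of some small changes depends on how libraries are scaled. With library totals in place of TMM the median of all genes against 0 days moved up by 0.66 at 10 days, 0.49 at 30 days and 0.41 at 60 days, and the share of calls that were rises went from 53.1% to 87.4%, from 52.2% to 84.1% and from 50.7% to 82.7%. Changes are therefore given relative to the bulk of genes. Under library totals 6 members rose and 2 fell at each of the 3 times, with Atf4 lower at all of them (-1.12, -0.95 and -0.55), and Ddit3 was called higher at 30 days (0.62, adjusted p 8.57e-05). The other members called with library totals but not with TMM were Psat1 (0.97) and Gdf15 (2.06) at 10 days, Psat1 (0.88) and Sesn2 (0.68) at 30 days, and Phgdh (1.45) and Sesn2 (0.82) at 60 days, each against 0 days.

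Symbols that are LOC, RGD or accession names were left out of the search for like patterns. Among the rest, the levels of Banf1, Chchd3, Pfkm, Sgcb and Dusp22 followed Atf4 most closely over the 16 libraries. Their Pearson's r of log2 CPM ran from 0.981 to 0.990. Pfkm, the muscle isoform of phosphofructokinase, averaged 6163 ± 264 CPM in unoperated muscle (SD, n = 4), then 974 ± 119, 1472 ± 357 and 2476 ± 528 CPM in order of time. Sgcb, a part of the sarcoglycan complex of the fibre membrane, averaged 520 ± 8.56, 224 ± 9.51, 247 ± 13.7 and 308 ± 29.0 CPM. For Ddit3 the closest were Hspb3, Ndufb7, Mrpl48, Nppc and Atp5i, with r from 0.961 to 0.979. Ndufb7, a subunit of respiratory complex I, averaged 174 ± 17.8, 75.1 ± 9.18, 186 ± 37.3 and 244 ± 38.9 CPM, and so shared the dip at 10 days and the highest level at 60 days. Differences between groups contribute to these correlations, and the genes were picked for them.

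Around the members, 94 further symbols of the pathway were listed, of which 88 were in the table and 83 were tested. At 10 days 26 rose and 33 fell, at 30 days 27 rose and 34 fell, and at 60 days 25 rose and 33 fell, with medians of 0.0057, -0.00093 and -0.069 on the log2 scale. Among all tested genes 33.3% rose and 29.4% fell at 10 days, 33.7% and 30.9% at 30 days, and 29.9% and 29.1% at 60 days, which is the background for every list below. With library totals the pathway counts were 59 and 12, 49 and 14, and 46 and 14, and with upper-quartile factors 29 and 31, 33 and 26, and 30 and 23, so which direction is the more frequent depends on the scaling. From 10 to 30 days 18 rose and 21 fell (all genes 23.0% and 24.3%), from 30 to 60 days 11 and 9 (10.3% and 12.4%), and from 10 to 60 days 23 and 31 (29.1% and 31.9%). Library totals gave 9 and 32, 5 and 20, and 10 and 40 for these, and upper-quartile factors 23 and 18, 13 and 9, and 28 and 27. Without 30-day replicate 4 the 20 calls from 30 to 60 days were 13. Values after ± are SE of log2 fold changes from the same edgeR model, and a gene said to have risen or fallen passed its adjusted p.

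Of the 15 tested genes for kinases, eIF2, its exchange factor eIF2B and the phosphatase subunits, 3 rose and 6 fell at 10 days, 3 and 8 at 30 days, and 3 and 7 at 60 days (with library totals 14 and 0, 8 and 3, and 8 and 3). Of all genes 33.3%, 33.7% and 29.9% rose and 29.4%, 30.9% and 29.1% fell. Eif2ak3, the kinase PERK, rose at each time, by 0.53 ± 0.16, 0.79 ± 0.16 and 0.82 ± 0.16. Eif2ak4, the kinase GCN2, rose at 30 and 60 days by 0.40 ± 0.10 and 0.42 ± 0.10. Its 10-day difference of 0.11 did not pass but did with library totals (0.76). Eif2b3, a subunit of eIF2B, rose at 10 days by 0.86 ± 0.07 from 17.7 ± 0.85 to 32.0 ± 0.98 CPM (SD, n = 4), with changes of 0.16 and 0.03 later that did not pass but did with library totals. Eif2s2, the beta subunit of eIF2, fell by 0.79 ± 0.06 at 30 days and 0.63 ± 0.06 at 60 days, and its fall of 0.26 at 10 days turned positive with library totals, as did that of Eif2b4 (-0.29). Ppp1r15a, or GADD34, which guides the phosphatase that resets eIF2, stood at 0.03, -0.21 and -0.20 and passed at no time. With library totals it was called higher at 10 days (0.69), and its signs turned under other scalings.

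Among the 6 tested transcription factors beside Atf4 and Ddit3, 1 rose and 4 fell at 10 days, 1 and 1 at 30 days, and 2 and 1 at 60 days, beside 33.3% and 29.4%, 33.7% and 30.9%, and 29.9% and 29.1% of all genes. Library totals gave 3 and 1, 3 and 0, and 3 and 1. Atf5, a close relative of Atf4 tied to mitochondrial stress, fell by 0.98 ± 0.14 at 10 days, was at 0.11 at 30 days and rose by 0.66 ± 0.14 at 60 days, lowest at 10 days and highest at 60 days like Ddit3. Cebpg, a C/EBP protein that pairs with ATF4, fell by 0.64 ± 0.09 at 30 days and 0.65 ± 0.09 at 60 days, and with library totals its 10-day fall of 0.28 turned positive and the 30-day call was lost. Nfe2l2, or NRF2, the regulator of antioxidant genes, rose by 0.56, 0.42 and 0.28. Atf3 fell by 1.70 ± 0.54 at 10 days (edgeR adjusted p 0.0125), with groups that overlapped, and the call was lost with library totals. Nupr1 was listed at 0 in all 16 libraries, as were Aldh18a1 and Yme1l1 of other lists. Whether a value of 0 there means no messenger RNA was not tested.

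In the serine, glycine and one-carbon list (8 tested), 4 rose and 2 fell at 10 days, 4 and 1 at 30 days, and 3 and 3 at 60 days, where the shares of all genes were 33.3% and 29.4%, 33.7% and 30.9%, and 29.9% and 29.1%. Library totals gave 7 and 1, 7 and 0, and 6 and 0, and upper-quartile factors 5 and 2, 6 and 1, and 3 and 1. Mthfd1l and Mthfd2, enzymes of the mitochondrial folate pathway, rose at all times, Mthfd1l by 2.70 ± 0.20, 1.25 ± 0.20 and 0.95 ± 0.21 and Mthfd2 by 1.32 ± 0.22, 1.16 ± 0.22 and 0.70 ± 0.23. Mthfd2l fell by 1.76, 0.92 and 0.56, of which the 30-day and 60-day calls were lost with library totals (-0.44 and -0.15). Shmt1, the cytosolic serine hydroxymethyltransferase, rose by 0.82 ± 0.16 at 10 days and fell by 0.55 ± 0.16 at 60 days, a call lost with library totals (-0.14). The mitochondrial Shmt2 was at 0.03 and 0.05 at 10 and 30 days, which did not pass but did with library totals (0.68 and 0.54), and was called lower at 60 days (-0.16), which turned to 0.24 with library totals.

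Of 8 other amino acid enzymes, 5 rose and 3 fell at 10 days, 3 and 4 at 30 days, and 3 and 3 at 60 days, against 33.3% and 29.4%, 33.7% and 30.9%, and 29.9% and 29.1% of all genes. With library totals the counts were 5 and 2, 4 and 1, and 4 and 2. Gpt2, the mitochondrial alanine aminotransferase, fell by 1.96 ± 0.14, 2.26 ± 0.14 and 2.59 ± 0.14. Got1, an aspartate aminotransferase, fell by 1.52 ± 0.15 at 10 days, and by 0.37 at 30 days, where library totals turned the sign. Pycr1, which makes proline, rose by 0.65 ± 0.15 at 10 days and fell by 0.77 ± 0.16 at 60 days, and its fall of 0.43 at 30 days turned to 0.06 with library totals.

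Of 8 transporters, 3 rose and 1 fell at 10 days, and 3 rose and 2 fell at 30 and at 60 days, compared with 33.3% and 29.4%, 33.7% and 30.9%, and 29.9% and 29.1% of all genes. The counts under library totals were 7 and 0, 6 and 1, and 4 and 1. Slc6a9, a glycine transporter, rose at 10 days by 3.17 ± 0.15, from 1.81 ± 0.25 to 16.3 ± 2.75 CPM (SD, n = 4), and was at 0.20 and -0.10 at 30 and 60 days, which did not pass (0.69 and 0.31 with library totals, of which the first passed). Slc7a5, the light chain of the large neutral amino acid transporter, rose by 3.01 ± 0.24 at 10 days and 1.62 ± 0.24 at 30 days and was at 0.37 ± 0.27 at 60 days, which did not pass but did with library totals (0.78). Slc3a2, the heavy chain that pairs with it, fell by 0.89 ± 0.10 at 30 days and 0.74 ± 0.10 at 60 days, and its 10-day fall of 0.29 turned positive with library totals. Slc7a11, the cystine carrier, rose by 2.88 ± 0.68, 2.71 ± 0.68 and 2.51 ± 0.72 from a mean of 0.131 CPM.

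In the list of growth control and other targets (12 tested), 3 rose and 8 fell at 10 days, 3 and 6 at 30 days, and 5 and 5 at 60 days, with 33.3% and 29.4%, 33.7% and 30.9%, and 29.9% and 29.1% of all genes beside them. Library totals gave 4 and 6, 4 and 5, and 7 and 4. Gadd45a, a growth arrest gene and known target of ATF4, rose by 5.26 ± 0.26, 4.97 ± 0.25 and 2.68 ± 0.23, from 24.3 ± 5.01 CPM in unoperated muscle to 931 ± 211, 759 ± 269 and 155 ± 18 CPM in order of time (SD, n = 4). Sesn1, the paralogue of Sesn2, fell by 1.40 ± 0.09, 1.36 ± 0.09 and 0.73 ± 0.09. Vldlr, a lipoprotein receptor, fell by 1.40, 1.23 and 0.87. Ddit4, or REDD1, an inhibitor of mTORC1, was called lower at 10 days (-0.65 ± 0.26), which came to 0.0078 with library totals, and rose by 1.13 ± 0.26 at 60 days. Gfral, the receptor of GDF15, had 3 fragments over all 16 libraries and was not tested.

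The 18 tested genes of the ATF6 and IRE1 arms of the unfolded protein response split into 7 that rose and 3 that fell at 10 days, 10 and 5 at 30 days, and 6 and 5 at 60 days (with library totals 17 and 0, 14 and 2, and 12 and 1). The shares of all genes were 33.3% and 29.4%, 33.7% and 30.9%, and 29.9% and 29.1%. Sdf2l1, a partner of the endoplasmic reticulum chaperone BiP, rose by 2.02 ± 0.13, 1.91 ± 0.13 and 1.32 ± 0.13. Hspa5, the gene of BiP itself, rose by 0.38 ± 0.08 at 30 days and was at -0.18 at 10 days and 0.18 at 60 days, which did not pass but did with library totals (0.48 and 0.59). Dnajc3, a co-chaperone that inhibits PERK and PKR, fell by 0.70, 0.70 and 1.02, and Sel1l, of the degradation machinery, fell by 0.52 and 0.67 at 30 and 60 days. With library totals the 10-day call of Dnajc3 (-0.040) and both of Sel1l (-0.026 and -0.26) were lost. Sel1l at 10 days, 0.30, did not pass but did with library totals (0.96). Of the 8 tested mitochondrial chaperones and proteases 0 rose at any time, and 6, 7 and 7 fell, while 33.3%, 33.7% and 29.9% of all genes rose and 29.4%, 30.9% and 29.1% fell. Spg7 fell by 1.05, 0.79 and 0.73, Hspa9 by 0.88, 0.86 and 0.60, and Hspd1 by 0.67, 0.56 and 0.33. With library totals that list split into 2 that rose and 2 that fell, 3 and 2, and 2 and 2, and all 3 calls of Hspd1 were lost (-0.0094, -0.069 and 0.080), so its falls are relative to the bulk of genes.

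**Figure D4:**
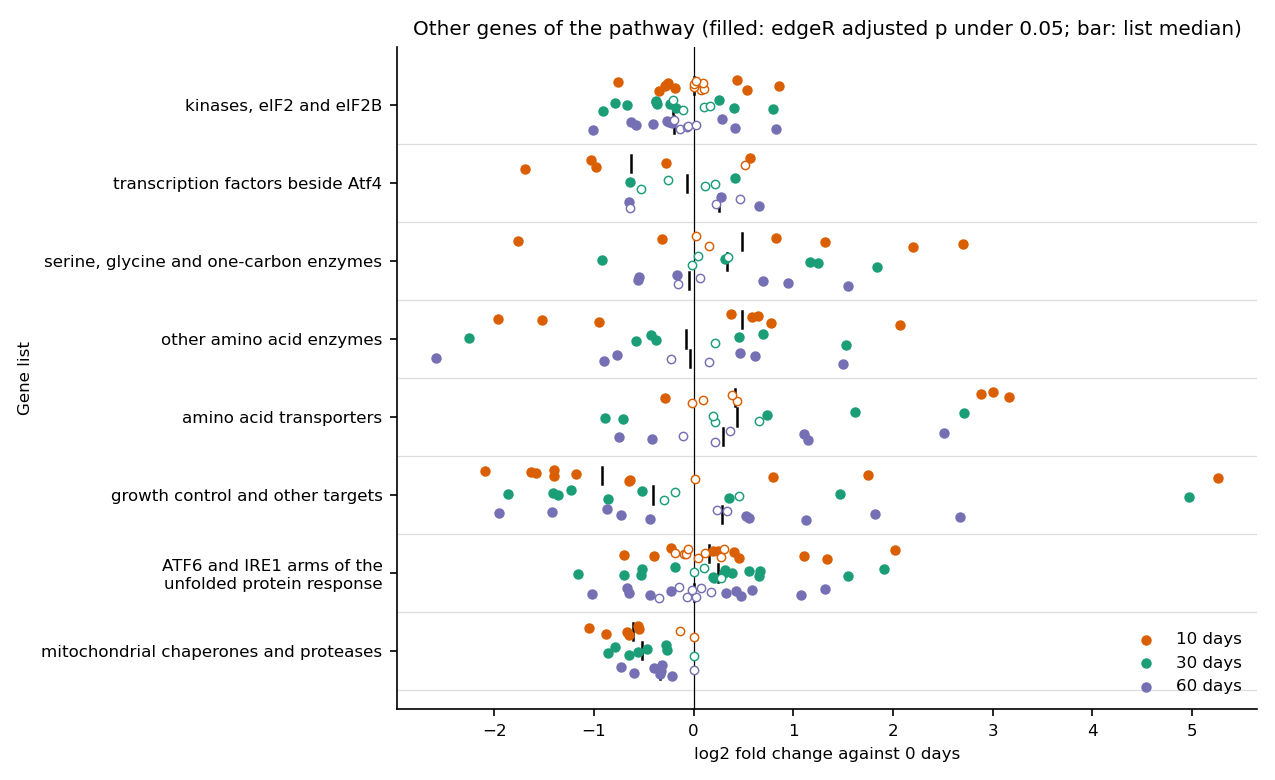
Log2 fold change from unoperated muscle of the 83 tested pathway genes in 8 lists, 1 point per gene and time, filled where the edgeR adjusted p is under 0.05, with a bar at each list's median. At 10 days Slc6a9 and Mthfd1l reach 3.17 and 2.70, Gadd45a is the highest point at 5.26, and 6, 7 and 7 of the 8 mitochondrial chaperones and proteases are filled points below 0.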

How the data were processed

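Polyadenylated RNA of 16 supraspinatus libraries was sequenced after miRNeasy extraction and TruSeq mRNA preparation, per the labels' protocols. What the authors deposited is a table of raw fragments for each gene symbol and library, whose values are estimated counts not scaled for depth or length, per the file headers. In it 233 of 17147 genes hold a fractional value, and none of the 10 members does. The submitters' processing notes name bcl2fastq 1.8.4, FastQC, TopHat2 2.0.9, Bowtie2 2.1.0.0, Cufflinks, Cuffdiff 2.1.1 and the build rn5, without roles; annotation, strandedness and the handling of multiply mapped fragments are not given in the sources used here. Totals were 17.2 to 39.9 M fragments (M, mega), so 3 fragments, taken as the floor, amount to 0.0752 to 0.175 CPM of the total, counting error only. Replicate libraries differed by 13.2 to 108 chi-square units per gene, and none was treated as a repeat of another.

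Counts were rounded, filtered with filterByExpr by group (11658 genes kept, 5489 not tested), scaled by TMM and fitted in 1 edgeR quasi-likelihood model of all 16 libraries with robust estimation and no covariate (R 4.3.3, edgeR 4.0.16, limma 3.58.1). P-values of the F tests were adjusted by Benjamini-Hochberg over all genes tested. An SE is the size of the log2 fold change divided by the square root of F, and the common biological coefficient of variation was 0.15. Groups came from the time in each label. In simulated data for 10 against 0 days, 200 of the 11658 genes were changed 2-fold, up or down. The filter then kept 11138 genes, and how many of the 200 it dropped was not recorded. The method called 155 of the 200 and 11 unchanged genes. In the real comparison 33.3% of genes rose and 29.4% fell, so the simulation does not test the scaling under so wide a change. Alternatives were RLE, upper-quartile and library-total scaling, DESeq2 1.42.0, limma-voom, no filter, a mean of at least 1 CPM, fits of the 2 compared groups, the replicate block (suffix of the column name), the title letter and leaving out each library. The members and gene lists were chosen with earlier results of these data known. Named pathway genes were the 3 of each list with the smallest joint p, and 9 further regulators and targets fixed by name. Genes most alike were the 5 with the highest Pearson's r of log2 CPM (prior count 2), with LOC, RGD and accession symbols left out. They were taken for Atf4 and for Ddit3, the other member with the smallest joint p. Promoter windows came from RefSeq (GRCr8), matched by symbol; the build differs from rn5, and no other coordinate was used. Figures were drawn with python 3.11.15 and matplotlib 3.10.9.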

Additional observations from a re-analysis of the deposited data

Results flagged for a closer look

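In 6 of 40 combinations of gene and group 1 library stood apart from the other 3 (Dixon's gap over range above the 95% critical value; chance gives about 1 in 20). These were Atf4 in 10-day replicate 4 at 189 CPM, Asns in 30-day replicate 1 at 3.51 CPM, Chac1 in 10-day replicate 4 at 14.6 CPM, Sesn2 in 60-day replicate 1 at 11.3 CPM, Gdf15 in 0-day replicate 2 at 0.514 CPM and Fgf21 in 60-day replicate 4 at 0.267 CPM.

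The change from 0 days differed between times by the edgeR test of the difference, in log2 units. This is the same test as the comparison between operated times given above, and the limits stated there hold here. At 30 against 10 days this held for Atf4 (0.35), Ddit3 (1.05), Trib3 (-1.92), Chac1 (-2.51), Gdf15 (1.54) and Fgf21 (-1.63). At 60 against 30 days it held for Atf4 (0.49), Ddit3 (0.39) and Fgf21 (-1.84). At 60 against 10 days it held for Atf4 (0.83), Ddit3 (1.44), Trib3 (-1.51), Chac1 (-2.60), Phgdh (1.91), Gdf15 (2.65) and Fgf21 (-3.48).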

How the results depend on the processing

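Of 1542 values of the 10 genes' changes under the alternatives, 1465 kept their direction and their side of the threshold, 22 lost the call, 40 gained one and 15 changed sign; limma-voom and the fit without a filter changed 0 of 60 each, and library totals changed 14. The mean of at least 1 CPM left low genes untested (48 of 60 values given), and the fits of 2 groups gave 54. Those fits apply the filter to the 2 groups alone, and all 54 values kept their direction and their side of the threshold. They called 4 members at 30 against 0 days, where the main fit called 6 and where Trib3 and Fgf21 were now filtered out. At 60 against 30 days they called 2, where the main fit called 3 and where Fgf21 was now filtered out. With library totals Chac1 at 10 against 0 days turned to 0.23, Phgdh at 30 against 0 days to 0.23 and Psat1 at 30 against 10 days to -0.092. With the title letter as a covariate Asns at 60 against 30 days turned to -0.015 and Fgf21 at 60 against 0 days to -0.014. None of these was called, and the cause was not tested. Leaving out 1 library each, values that changed sign ran from -0.025 to 0.82 for Asns and from -0.24 to 0.10 for Chac1 at 60 against 30 days, from -0.49 to 0.0098 for Phgdh at 30 against 0 days, from -0.050 to 0.30 for Psat1 at 30 against 10 days, from -0.29 to 0.085 for Sesn2 and from -0.44 to 0.75 for Fgf21 at 60 against 10 and 60 against 0 days. The count of members called at 60 against 30 days (3) ran from 1 to 5 and that of pathway genes (20) from 13 to 29, and in the fit of the 2 compared groups the latter was 13. The replicate block moved 2 calls: Sesn2 at 10 against 0 days (0.50, edgeR adjusted p 0.0524) was lost and Gdf15 (1.31, edgeR adjusted p 0.0497) gained, with 6 members called there as without it. The labels do not say what the suffixes stand for. Over 24 same-suffix pairs the correlation of deviations ran from -0.24 to 0.22, with 4 above 0.1. Pairs with different suffixes were not computed, so these values cannot show whether a suffix marks shared handling. DESeq2 gained 4 calls: Gdf15 at 10 against 0 days (1.43, adjusted p 0.021), Phgdh at 60 against 0 days (1.03, adjusted p 0.041) and at 60 against 30 days (1.30, adjusted p 0.0206), and Psat1 at 60 against 10 days (0.62, adjusted p 0.0451). Depth limits Fgf21, Gdf15 and Trib3, which had under 20 fragments in many libraries. It also limits Asns at 0 days, with 5 to 21 fragments, and Phgdh and Psat1, whose lowest libraries held 9 and 12.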
